A study of Mus musculus with 4 samples.

Results

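The TALE homeobox genes (named for a loop of extra amino acids in their homeodomain) Meis1, Meis2, Meis3, Pbx2, Pbx3, Pbx4, Pknox1 and Pknox2 were followed in single-cell RNA sequencing of the embryonic mouse cerebellum. These 8 of the 32285 genes in the count matrices were chosen by name, because Meis, Pbx and Pknox (also called Prep) proteins are DNA-binding partners of other homeodomain proteins. Pbx proteins bind DNA together with Meis or Pknox proteins, and these pairs raise the specificity of Hox, Engrailed and Pax factors. Meis and Pknox proteins bind the same surface of Pbx and hold it in the nucleus. Meis1 is known as a regulator of granule cell precursors, and Meis2 is widely used as a marker of excitatory neurons of the cerebellar nuclei.

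Cells were sorted for tdTomato from cerebella of E14.5 embryos (the age in embryonic days), with 2 control and 2 Engrailed conditional knockout (En1/2 CKO) libraries. Both genotypes carried the driver Atoh1-Cre/+ and the reporter R26LSL-tdT/+. The knockout was in addition En1lox/lox with En2lox/lox, and the controls had no floxed Engrailed allele in their label. Atoh1-Cre acts in the rhombic lip lineage, which gives the granule cells, excitatory nuclei neurons and unipolar brush cells, and it deletes En1 and En2 in that lineage. Each library pooled an unstated number of embryos, so the n is 2 pools per genotype and p-values measure only the spread between these pools.

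In all, 12546 cells were kept, between 2007 and 3931 per library, with median depths of 2734 and 2122 UMIs (unique molecular identifiers, the counted transcripts) in controls and 5352 and 5544 in the CKO. Between 1 and 6 barcodes were shared by any pair of libraries. Each kept cell was put in 1 of 6 groups by the UMIs it held. A UMI of Gad1 or Gad2 put it in the Gad group (245 cells). Of the others, a UMI of Atoh1, the precursor factor, put it in the Atoh1 group (3619 cells), and the rest were split by Neurod1, a differentiation factor, and Slc17a6, the vesicular glutamate transporter. These gave the Neurod1 group (2568 cells), the Neurod1+Slc17a6 group (1085 cells), the Slc17a6 group (1592 cells) and a group with none of the markers (3437 cells). All of these groups are defined by detection and therefore by depth: the Atoh1 group had median depths of 5775 and 2746 UMIs in controls and 16414.5 and 12726 in the CKO, while the Slc17a6 group had 2599 and 2238 against 2665.5 and 1979.

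The labelled tissue was checked against markers. The 8 granule lineage markers summed to 2479 to 3080 CPM (UMIs scaled to a total of 1000000 in each group and library) in the Atoh1 group. They were also at 3291 to 4094 CPM in the Neurod1 group and 2032 to 4002 CPM in the Slc17a6 group, so this list did not set the groups apart. The 8 excitatory nuclei markers summed to 765 to 1479 CPM in the Slc17a6 group and 105 to 590 CPM in the Atoh1 group. Erythroid markers, mostly haemoglobin, summed to 1110 and 2305 CPM over all control cells and 690 and 3.14 CPM over all CKO cells. In the Slc17a6 group they were at 1177 and 1292 CPM against 15.2 and 3.23 CPM, and in the unmarked cells of CKO replicate 1 at 14334 CPM. En2 was at 240 and 202 CPM in the control Slc17a6 groups and at 38.6 and 51.7 CPM in the CKO (log2 fold change -2.33, SE 0.27, adjusted p = 0.00338, edgeR quasi-likelihood test). En1 was at 529 and 479 CPM against 388 and 843 CPM (0.25, SE 0.33, adjusted p = 0.9995, edgeR). Whether the sequenced 3′ ends lie in the deleted part of either gene is not given in the sources used here.

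**Figure D1:**
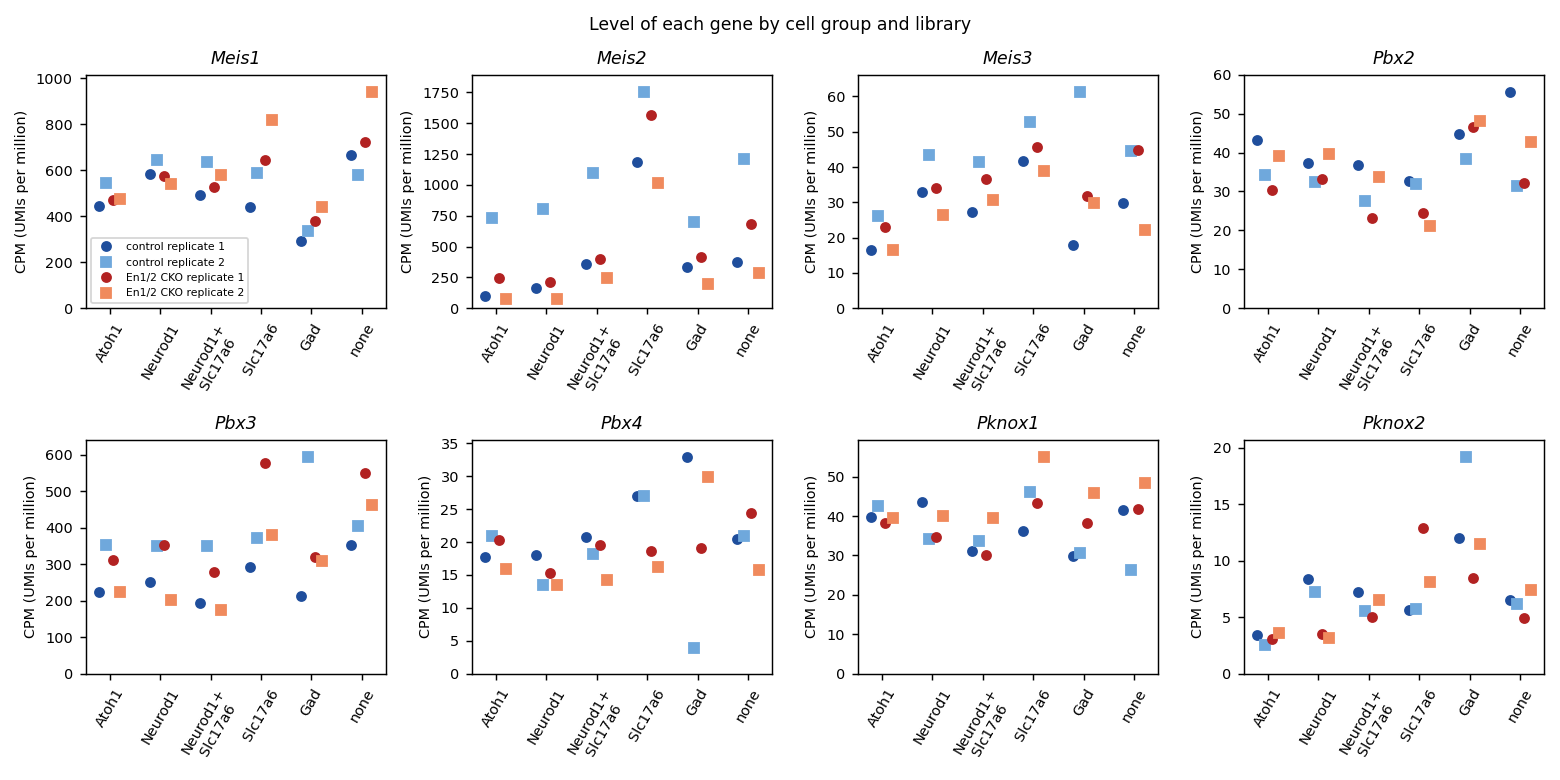
CPM of the 8 genes (vertical axes, linear, from 0, each with its own range) in the 6 cell groups (horizontal axes), 1 point per library. Meis2 stood between 1016 and 1754 CPM in the Slc17a6 group and varied most between libraries elsewhere, with control replicate 2 the highest library for Meis2 in every group.

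Meis2 marked the Slc17a6 group. Its level there was 1189 and 1754 CPM in the controls and 1564 and 1016 CPM in the CKO. In the Atoh1 group it was 96.7 and 729 CPM in the controls and 241 and 72.1 CPM in the CKO. Every library was therefore higher in the Slc17a6 group, by 12.3-fold and 2.41-fold in control replicates 1 and 2 and by 6.48-fold and 14.1-fold in CKO replicates 1 and 2. With the library as a block, the difference was 2.75 on the log2 scale (SE 0.25, adjusted p = 8.43e-10, edgeR quasi-likelihood test, 4 of 4 libraries), rank 121 by size of the rise among 11573 genes tested. This SE and p come from 1 model of all 24 sums of a cell group and a library. They pool the spread over the 6 groups and do not measure only the spread of the 4 folds above. The same holds for the other edgeR tests between groups. At equal depth, with each cell of at least 2000 UMIs thinned to 2000 and put in its group again, the difference was 2.21. This left 1971 and 2145 control and 1585 and 2598 CKO cells, since 4247 shallower cells of the 12546 were left out.

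Meis2 was not called between the Neurod1 and Atoh1 groups. In the Neurod1 group it stood at 162, 802, 211 and 77.5 CPM in control replicates 1 and 2 and CKO replicates 1 and 2 (log2 fold change 0.12, SE 0.24, adjusted p = 0.726, edgeR). Cells with UMIs of both Neurod1 and Slc17a6 lay between, at 361, 1099, 395 and 246 CPM (1.15 above the Atoh1 group on the log2 scale, SE 0.24, adjusted p = 0.000319, edgeR). The Slc17a6 group exceeded the Neurod1 group by 2.63 (SE 0.25, adjusted p = 1.19e-08, edgeR), rank 73 of 11573. Cells with none of the markers held 374, 1206, 684 and 287 CPM, and were 1.33 above the Atoh1 group (SE 0.24, adjusted p = 4.91e-05, edgeR). In the Gad group, which is only 50 to 87 cells per library, Meis2 was at 338, 701, 416 and 198 CPM (0.82 above the Atoh1 group, adjusted p = 0.0269, edgeR). That last call was lost without control replicate 1 (0.59), without CKO replicate 1 (0.90) and without CKO replicate 2 (0.68).

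The order of the Meis2 group means over the 4 libraries ran from the Slc17a6 group (1381 ± 338 CPM, SD, n = 4) through the unmarked cells (638 ± 415), the Neurod1+Slc17a6 group (525 ± 388), the Gad group (413 ± 212) and the Neurod1 group (313 ± 331) to the Atoh1 group (285 ± 305). Every neighbour in that order overlapped over libraries, since libraries differed so much in Meis2. Within libraries the Slc17a6 group was the highest of the 6 in all 4.

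Counting cells gave the same picture for the 2 groups at the ends. After thinning, 70.7% of 215 and 87.0% of 514 control cells of the Slc17a6 group held a Meis2 UMI, against 76.8% of 164 and 56.5% of 108 CKO cells. The 95% Wilson intervals, which cover counting error only, were 64.3 to 76.4%, 83.8 to 89.6%, 69.8 to 82.6% and 47.1 to 65.4%. In the Atoh1 group the shares were 19.1%, 60.2%, 25.7% and 8.45% in the same order of libraries. Without thinning, the shares were 69.7%, 84.7%, 77.7% and 59.8% in the Slc17a6 group and 36.2%, 71.2%, 58.9% and 27.0% in the Atoh1 group. Control replicate 2 was again the highest, with most Atoh1 cells holding a Meis2 UMI with and without thinning. Without thinning this was also so for CKO replicate 1. A background share in a cell type that should lack the gene could not be had, since only 3 kept barcodes were at least 50% haemoglobin UMIs, and 1 of these 3 held a Meis2 UMI.

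**Figure D2:**
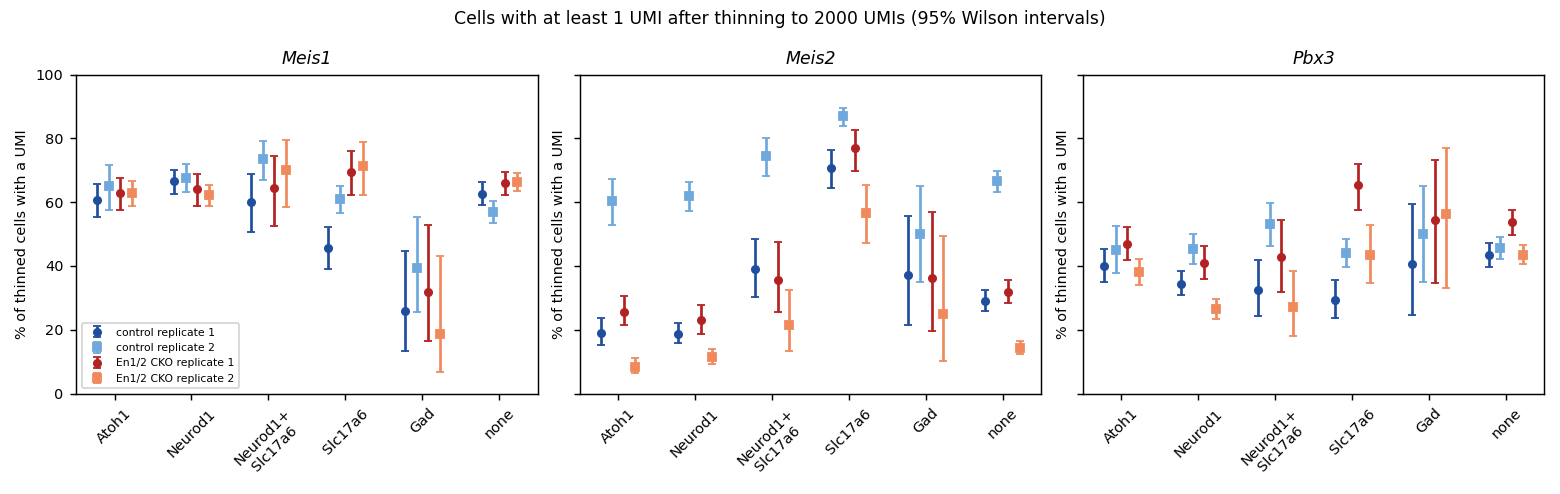
Percent of cells with at least 1 UMI of Meis1, Meis2 or Pbx3 (vertical axis) after thinning to 2000 UMIs, with shallower cells left out, by cell group (horizontal axis), 1 point per library with its 95% Wilson interval. Meis1 shares lie between 60.6 and 64.9% in the Atoh1 group, while Meis2 shares there run from 8.45 to 60.2%.

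The Meis2 level outside the Slc17a6 group moved from library to library with the excitatory nuclei markers. In the Atoh1 group the 8 markers of that list summed to 129 and 590 CPM in the controls and 294 and 105 CPM in the CKO, the same order as Meis2. Lhx9, a LIM homeodomain factor of these neurons, was at 38.4, 257, 123 and 23.8 CPM. Across all 24 sums of a cell group and a library, there were 1.96 to 4.45 Meis2 UMIs for each Lhx9 UMI, while the Meis2 level itself ran from 72.1 to 1754 CPM. The part of nuclei neuron RNA or cells in the Meis2 level of the other groups was not tested. With the cells of the highest doublet scores left out, the rise of Meis2 from the Atoh1 to the Slc17a6 group was 2.86.

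**Figure D3:**
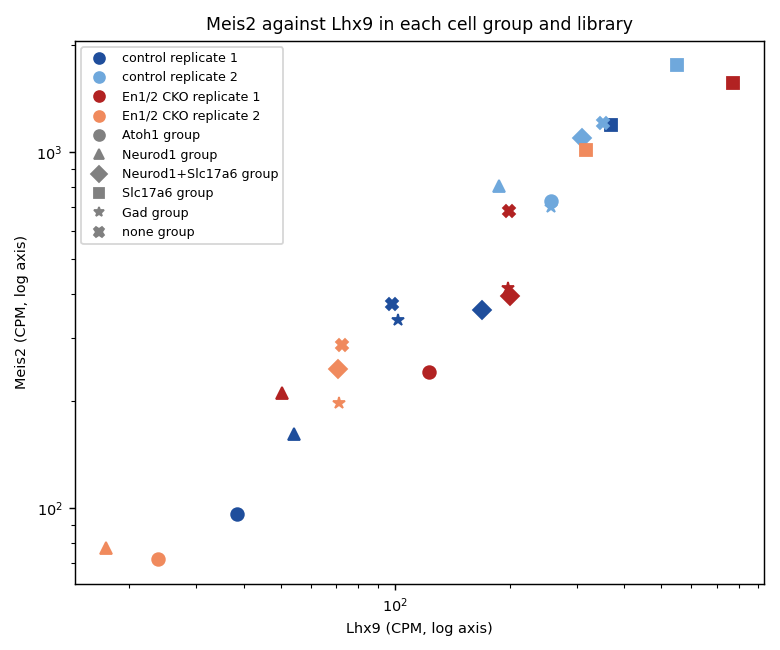
Meis2 against Lhx9, both in CPM on log axes, with 1 point for each of the 24 pairs of a cell group (symbol) and a library (colour). The points form a single band over the whole range, in which the 4 Slc17a6 points and those of control replicate 2 lie at the upper end.

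The gene whose pattern over those 24 sums was most like that of Meis2 was Rmst, a long noncoding RNA, with a Pearson r of 0.98 of log2 levels, the highest of 6939 genes compared. Lhx9 followed at 0.97, then C1ql3, Flrt3 and Resp18 at 0.96, 0.95 and 0.95. The points share libraries and depth, so these values are a description. Among the other genes of the family, r with Meis2 was 0.76 for Meis3, 0.63 for Pbx3 and 0.22 for Meis1. It was -0.09 for Pknox1 and -0.52 for Pbx2.

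Meis1 was found broadly, and in the Atoh1, Neurod1 and Neurod1+Slc17a6 groups the libraries lay closer together than for Meis2. In the Atoh1 group it was at 445 and 544 CPM in the controls and 469 and 473 CPM in the CKO. In the Neurod1 group it was at 586, 646, 575 and 542 CPM, and in the Neurod1+Slc17a6 group at 491, 638, 527 and 577 CPM. Neither passed the test against the Atoh1 group (0.22, SE 0.12, adjusted p = 0.15, and 0.17, SE 0.12, adjusted p = 0.269, edgeR), and neither did the Slc17a6 group at 439, 589, 643 and 820 CPM (0.23, SE 0.12, adjusted p = 0.107). Without control replicate 1 the last of these passed, at 0.37. The unmarked cells were higher, at 667, 581, 721 and 941 CPM (0.42, SE 0.12, adjusted p = 0.00416, edgeR), a call that did not hold at equal depth (0.06) or without CKO replicate 2 (0.31).

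The Gad group was the one group with a lower Meis1 level. It held 293 and 337 CPM in the controls and 378 and 441 CPM in the CKO, below the Atoh1 group in all 4 libraries (log2 fold change -0.53, SE 0.13, adjusted p = 0.00587, edgeR). Its highest library lay just under the lowest of the Atoh1 group, and the call was lost without control replicate 1 (-0.44). Thinned shares followed this order: 18.8 to 39.5% of the 16 to 38 Gad cells per library held a Meis1 UMI, against 60.6 to 64.9% of Atoh1 cells. The Gad group was mixed: its 7 GABAergic markers summed to 409 to 1398 CPM, with Ptf1a at 0 in all libraries, while the granule lineage markers summed to 1877 to 3232 CPM and the nuclei markers to 457 to 1157 CPM. Foxp2 is on both the GABAergic and the nuclei list, so those sums share its UMIs. Lhx9, on the nuclei list only, was at 102 and 257 CPM in the controls and 197 and 71.2 CPM in the CKO.

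Meis1 lies on mouse chromosome 11 (GRCm38, chr11:18879817-19018985, minus strand), and the gene most like it was Gm16141 (r of 0.90), which overlaps it on the opposite strand. Whether the authors' counting kept the strands apart is not given in the sources used here, so it is not known if UMIs of this pair were mixed. Meis1 also overlaps 3 annotated genes on its own strand (Gm37818, 2900018N21Rik and 2610001A08Rik), so its counts are uncertain there. Trmt1l, Sema6d, Tcf12 and Ep400 followed at 0.87, 0.83, 0.82 and 0.82. Meis2 lies at chr2:115863064-116065839 on the minus strand, with no other annotated gene overlapping it.

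Outside the Gad group, Meis1 and Meis2 were found in the same cells about as often as their single shares give. In the Slc17a6 group both were detected in 29.8% and 51.8% of thinned control cells and in 55.5% and 40.7% of CKO cells, against products of the single shares of 32.2%, 53.0%, 53.4% and 40.3%. In the Atoh1 group the values were 10.9%, 38.0%, 16.4% and 5.11% against 11.6%, 39.1%, 16.1% and 5.31%. Over the 5 groups other than Gad, the ratio of observed to product ran from 0.83 to 1.18 for Meis1 with Meis2 and from 0.88 to 1.11 for Meis1 with Pbx3. For Meis2 with Pbx3 it ran from 0.98 to 1.47. The highest of these, 1.47, came from the Neurod1 group of CKO replicate 2, in which 4.45% of 787 cells held both. In the Gad group, with 16 to 38 thinned cells per library, the control ratios for Meis1 with Meis2 were 1.54 and 1.47, and the CKO ratios 1.18 and 2.67.

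Meis3, the third Meis gene, was counted at far fewer UMIs, and it was low in precursors. It stood at 16.5 and 26.0 CPM in the controls and 23.1 and 16.4 CPM in the CKO in the Atoh1 group. In the Slc17a6 group it was at 41.8, 52.7, 45.6 and 38.8 CPM, with no overlap between the groups. The rise was 0.98 (SE 0.14, adjusted p = 1.47e-06, edgeR), between 1.98-fold and 2.54-fold in each of the 4 libraries, and it was 0.86 at equal depth. Meis3 was also higher than in the Atoh1 group in the Neurod1 group (0.66, adjusted p = 0.00011), the Neurod1+Slc17a6 group (0.67, adjusted p = 0.000212) and the unmarked cells (0.58, adjusted p = 0.000579), all by edgeR. At equal depth these 3 smaller differences no longer passed, at 0.35, 0.45 and 0.13. In the Gad group the difference of 0.60 missed the threshold (adjusted p = 0.0517, edgeR).

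Of the Pbx genes, Pbx3 had the most UMIs. It was at 224, 354, 310 and 223 CPM in the Atoh1 group and at 291, 371, 578 and 380 CPM in the Slc17a6 group, higher in 4 of 4 libraries (0.42, SE 0.16, adjusted p = 0.0223, edgeR). The Slc17a6 group also exceeded the Neurod1 group, where Pbx3 was at 251, 351, 354 and 201 CPM (0.44, SE 0.16, adjusted p = 0.0332, edgeR). Against the Atoh1 group the call was lost at equal depth (0.20), without CKO replicate 1 (0.31) and without CKO replicate 2 (0.37). Against the Neurod1 group it was lost without control replicate 1 (0.52), CKO replicate 1 (0.36) or CKO replicate 2 (0.33). In the unmarked cells Pbx3 was at 354, 405, 551 and 463 CPM (0.54 above the Atoh1 group, SE 0.15, adjusted p = 0.00416, edgeR), which did not hold at equal depth (0.16) or without CKO replicate 2 (0.44). The patterns most like Pbx3 were those of Crebzf, Igsf8, Phf3, Acvr2b and Igsf9, with r of 0.87, 0.85, 0.84, 0.83 and 0.81.

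Pbx2 went the other way. It fell from 43.1, 34.3, 30.4 and 39.2 CPM in the Atoh1 group to 32.7, 31.9, 24.6 and 21.0 CPM in the Slc17a6 group (-0.43, SE 0.15, adjusted p = 0.0152, edgeR, lower in 4 of 4 libraries). These Slc17a6 levels are 29, 72, 21 and 13 UMIs in all, and the call was lost at equal depth (-0.18) and without control replicate 1 (-0.37), CKO replicate 1 (-0.41) or CKO replicate 2 (-0.30). Pbx2 (chr17:34591266-34597400, plus strand) overlaps Gpsm3 on the same strand, so its counts are uncertain. Pbx4 was at 17.7, 20.9, 20.3 and 15.9 CPM in the Atoh1 group and at 27.1, 27.0, 18.7 and 16.2 CPM in the Slc17a6 group, which did not pass the test (0.22, adjusted p = 0.353, edgeR). Against the Neurod1 group, at 18.0, 13.4, 15.4 and 13.5 CPM, the Slc17a6 group passed narrowly (0.57, SE 0.21, adjusted p = 0.0412, edgeR). Leaving out any 1 of the 4 libraries ended that call, with values from 0.31 to 0.67, as did equal depth (0.45) and testing without a filter on low counts (0.54).

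Pknox proteins compete with Meis proteins for Pbx. Pknox1 varied little, at 39.8, 42.5, 38.2 and 39.4 CPM in the Atoh1 group and at 36.1, 46.0, 43.3 and 55.0 CPM in the Slc17a6 group (0.10, SE 0.13, adjusted p = 0.515, edgeR). It was called in none of the 6 comparisons between groups. Pknox2 was near the limit of detection, with 26, 4, 47 and 79 UMIs in the whole Atoh1 group (3.45, 2.54, 3.03 and 3.61 CPM). It was at 12, 19.2, 8.48 and 11.5 CPM in the Gad group (1.73 above the Atoh1 group, SE 0.43, adjusted p = 0.00628, edgeR), on 4 or 5 UMIs per library. In the Slc17a6 group it was at 5.64, 5.75, 12.9 and 8.09 CPM (1.06, SE 0.35, adjusted p = 0.0107, edgeR), a call that did not hold without CKO replicate 1 (0.73). Both groups lay above the Atoh1 group in all 4 libraries.

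**Figure D4:**
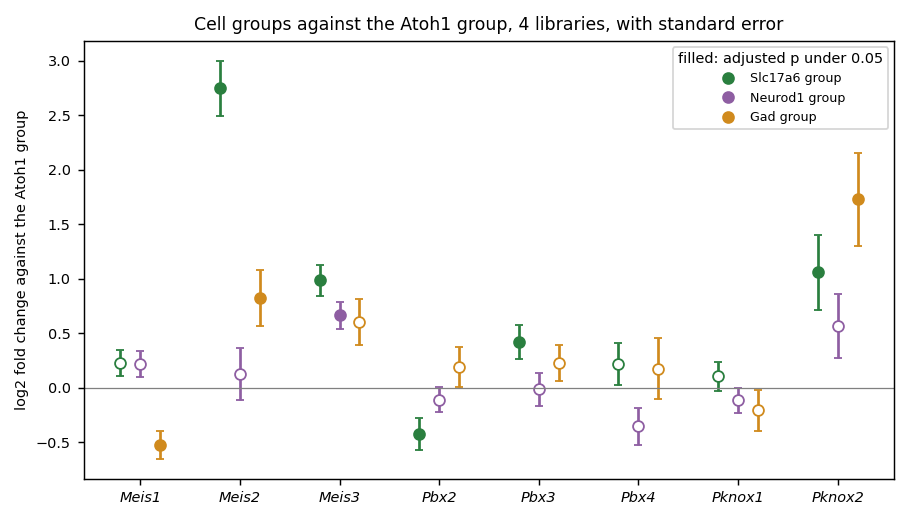
Log2 fold change of each gene in the Slc17a6, Neurod1 and Gad groups against the Atoh1 group (vertical axis). Values are from the edgeR model of 6 groups and 4 libraries, with the library as a block. Bars are standard errors, and filled points have an adjusted p under 0.05. Meis2 in the Slc17a6 group lies highest at 2.75, and Meis1 in the Gad group lowest at -0.53.

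Of the 8 genes, 5 were called between the Slc17a6 and Atoh1 groups (Meis2, Meis3, Pbx3 and Pknox2 higher, Pbx2 lower), where 58.9% of all tested genes were called. Between the Neurod1 and Atoh1 groups 1 of 8 was called (Meis3), with 38.5% of all genes. The Neurod1+Slc17a6 group gave 4 of 8 (Meis2, Meis3 and Pknox2 higher, Pbx2 lower, with 45.1% of all genes), the Gad group 3 of 8 (17.9%) and the unmarked cells 5 of 8 (54.5%). Pknox2 and Pbx2 in the Neurod1+Slc17a6 group lay near the threshold (adjusted p = 0.0499 and 0.0446, edgeR). So did Pknox2 in the unmarked cells (adjusted p = 0.044, edgeR). Between the Slc17a6 and Neurod1 groups 3 of 8 were called (Meis2, Pbx3 and Pbx4, all higher; 32.4%). Cells of these groups differ in a large part of the transcriptome, and the counts of TALE genes are read against those shares only. The median of the 8 genes was 0.32 between the Slc17a6 and Atoh1 groups and 0.05 between the Neurod1 and Atoh1 groups, where the medians over all genes were -0.01 and -0.03. The Meis2 difference between the Slc17a6 and Atoh1 groups was the largest of the 8.

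Other TALE genes were read from a list of 7. Between the Slc17a6 and Atoh1 groups 5 of the 6 tested were called, where 58.9% of all tested genes were called. The Iroquois genes Irx3 (2.02, SE 0.28, adjusted p = 7.8e-07, edgeR) and Irx5 (1.19, SE 0.20, adjusted p = 1.43e-05) were higher in the Slc17a6 group. Irx1 was lower (-0.56, adjusted p = 0.00036, edgeR), and so were the repressors Tgif1 (-2.25, SE 0.25, adjusted p = 1.36e-08) and Tgif2 (-2.20, SE 0.27, adjusted p = 7.59e-08). Irx2 was not called (-0.22), and Mkx had too few UMIs. Irx3 is also 1 of the 8 nuclei markers used above. Tgif proteins bind DNA motifs that overlap those of Meis proteins, and Tgif1 went from 51.8, 24.8, 45.3 and 48.1 CPM in the Atoh1 group to 13.5, 7.96, 5.85 and 8.09 CPM in the Slc17a6 group.

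Of 14 possible partner genes, 6 could be tested between these groups and all 6 were called, beside the same 58.9% of all tested genes. En1 (1.35, SE 0.20, adjusted p = 1.71e-06, edgeR) and En2 (0.63, SE 0.21, adjusted p = 0.0116) were higher in the Slc17a6 group. This fit takes in the CKO libraries, in which these 2 genes are the deleted ones. In controls En2 was at 161 ± 58.8 CPM in the Atoh1 group and 221 ± 27.0 CPM in the Slc17a6 group (SD, n = 2). In the CKO it was at 22.1 ± 7.94 and 45.2 ± 9.31 CPM. En1 was at 270 ± 142 and 504 ± 35.4 CPM in controls and at 152 ± 42.3 and 615 ± 321 CPM in the CKO. Otx2 (-3.31), Pax3 (-2.19), the Pbx-binding protein gene Pbxip1 (-1.74) and Pax6 (-1.37) were lower. Pax7 and the 7 Hox genes of the list, the classical partners of Pbx and Meis further back in the hindbrain, did not have enough UMIs to be tested. The highest level of any of these Hox genes in the Slc17a6 group was 10.2 CPM, for Hoxb3 in control replicate 1.

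The question the design puts to these genes is whether their level depends on Engrailed. The median effect of the 8 genes was 0.02 in the Atoh1 group and -0.21 over the 7 tested in the Slc17a6 group, where the medians over all genes were -0.02 and 0.0035. None of the 8 was called between En1/2 CKO and control in any group or over all kept cells, in 54 fits. Of these, 3 had an unadjusted p under 0.05, and DESeq2 called none of the 40 fits for which it gave an adjusted p. The shares of all tested genes called by edgeR were 0.0222% in the Atoh1 group, 0.0179% in the Neurod1 group, 0.00966% in the Neurod1+Slc17a6 group, 0.144% in the Slc17a6 group and 0.401% in the Gad group. They were 0 in the unmarked cells and over all kept cells, so few genes of any kind passed with 2 pools per genotype. Pknox2 had too few UMIs to be tested in the Slc17a6 and Gad groups. En2 was the only gene of the 2 lists of TALE and partner genes to be called in any of these fits, in the Neurod1 (-2.70), Neurod1+Slc17a6 (-3.00) and Slc17a6 (-2.33) groups.

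**Figure D5:**
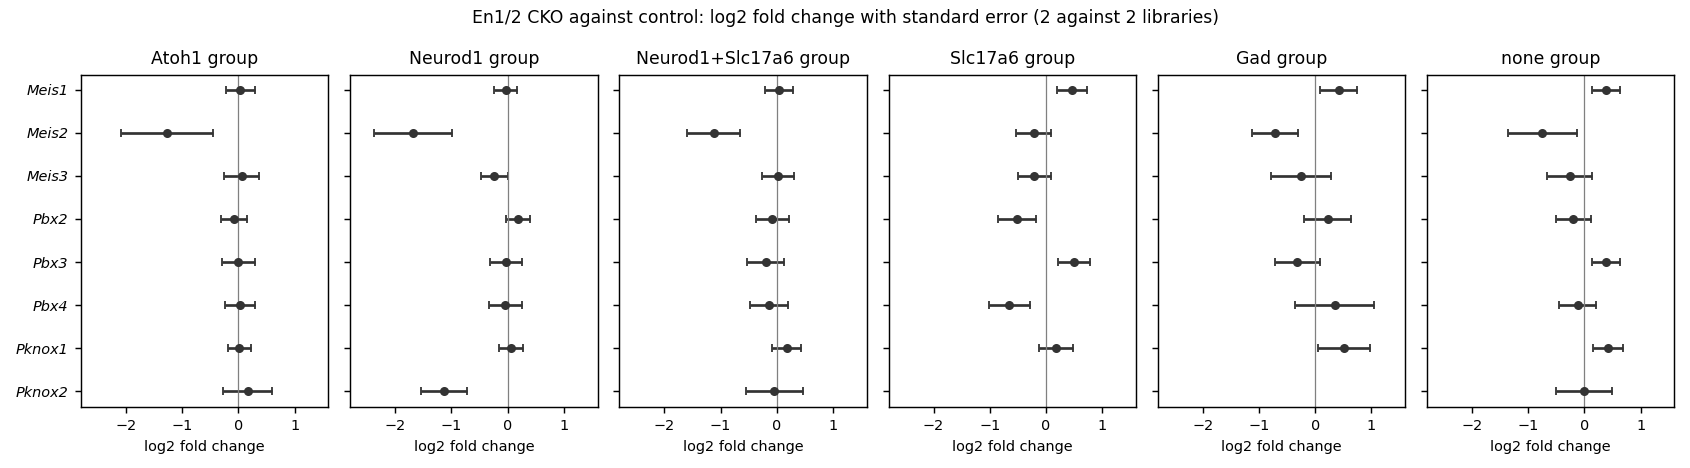
Log2 fold change of En1/2 CKO against control (horizontal axis) with its standard error for each gene, in the 6 cell groups, from 2 against 2 libraries by edgeR. Meis2 values lie left of 0 in all 6 panels, from -1.68 to -0.22, with wide bars, and Pknox2 was not tested in 2 of them.

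Of the 8 genes, Meis2 had the largest fold changes outside the Slc17a6 group, and each fell short of a call. Over all kept cells it was at 237 and 1148 CPM in the controls and 328 and 117 CPM in the CKO (-1.52, SE 0.77, adjusted p = 0.452, edgeR). The controls lay on both sides of CKO replicate 1. The value was -1.27 (SE 0.81, adjusted p = 0.971) in the Atoh1 group, -1.68 (SE 0.69, adjusted p = 0.33) in the Neurod1 group and -1.13 (SE 0.46, adjusted p = 0.338) in the Neurod1+Slc17a6 group, all by edgeR. These differences hung on control replicate 2. Without it they were 0.07 over all cells, 0.78 in the Atoh1 group, -0.05 in the Neurod1 group and -0.06 in the Neurod1+Slc17a6 group. Without control replicate 1, Meis2 was called over all cells (-2.23), in the Neurod1 group (-2.43) and in the Neurod1+Slc17a6 group (-1.71). The nuclei markers summed to 236 and 723 CPM over all control cells and 357 and 136 CPM over all CKO cells, so they moved with Meis2 across the libraries, and their part in the Meis2 values was not tested.

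Within the Slc17a6 group, the cells with the highest Meis2 level, the genotype difference was small against the spread: 1472 ± 399 CPM in controls and 1290 ± 388 CPM in the CKO (SD, n = 2; -0.22, SE 0.32, adjusted p = 0.9995, edgeR). The share of thinned cells with a Meis2 UMI was 78.8 ± 11.5% in controls and 66.7 ± 14.4% in the CKO (exact permutation test over libraries, two-sided, p = 0.667, where 2 against 2 cannot go below 0.333). The difference of the Meis2 effect between the Slc17a6 and Atoh1 groups was 0.70 (SE 0.53, adjusted p = 0.9998, edgeR interaction test). It was -0.42 without control replicate 2 and 1.78, past the threshold, without control replicate 1. None of the 8 genes passed that interaction test, which called 0.0087% of all genes.

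Meis1 and Pbx3 in the Slc17a6 group had no overlap between genotypes, with the CKO libraries the higher. The same held for both in the unmarked cells and for Meis1 in the Gad group. Meis1 in the Neurod1 group had no overlap with the CKO lower. Among all pairs of a gene and a group with at least 10 UMIs, 38.2% did not overlap. In the Slc17a6 group Meis1 was at 439 and 589 CPM in the controls and 643 and 820 CPM in the CKO (0.47, SE 0.27, adjusted p = 0.9995, edgeR). Pbx3 was at 291 and 371 CPM against 578 and 380 CPM (0.50, SE 0.28, adjusted p = 0.9995, edgeR). Thinned cells with a Meis1 UMI made up 45.6% and 60.9% of control and 69.5% and 71.3% of CKO cells of the group, or 57.6%, 63.2%, 84.2% and 79.4% without thinning (thinned shares, exact permutation test, two-sided, p = 0.333, the smallest that 2 against 2 allows). For Pbx3 the shares were 29.3% and 44.0% against 65.2% and 43.5%, which overlapped. The granule lineage markers also differed in this group, at 2333 and 2032 CPM in the controls and 3068 and 4002 CPM in the CKO, and their part in the Meis1 and Pbx3 values was not tested. Pbx2 and Pbx4 had the reverse order, with both CKO libraries below both controls (-0.52, SE 0.33, and -0.65, SE 0.37, adjusted p = 0.9995 for each, edgeR).

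The control and CKO levels did not overlap for 15 of the 48 pairs of a gene and a cell group, which is 31.3% where 38.2% of all pairs of a gene and a group with at least 10 UMIs did not overlap. None was called, with Pknox2 in the Slc17a6 and Gad groups not tested. Pknox2 in the Neurod1 group was 1 of these 15, at 8.33 and 7.23 CPM in the controls and 3.47 and 3.13 CPM in the CKO (-1.14, SE 0.41, adjusted p = 0.284, edgeR). In the Atoh1 group every gene other than Meis2 lay close to 0, from -0.08 for Pbx2 to 0.17 for Pknox2, with standard errors of 0.20 to 0.44. Across all fits of the genes other than Meis2 and Pknox2, the CKO effect ran from -0.65 to 0.51.

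The share of kept cells in each group was compared by an exact permutation test, which cannot go below 0.333 with 2 pools per genotype. The Slc17a6 group made up 16.3 ± 8.69% of control and 7.86 ± 3.12% of CKO cells, and the Atoh1 group 17.6 ± 11.1% and 44.0 ± 1.24% (SD, n = 2; exact permutation test, two-sided, p = 0.333 for each). At equal depth the Atoh1 shares were 12.6 ± 6.56% and 22.1 ± 0.333%. The Meis2 difference in the sums over all kept cells was not called and hung on control replicate 2. In those sums, fewer cells with much Meis2, less Meis2 RNA per cell and the spread between pools cannot be told apart.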

How the data were processed

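Deposited values were raw UMI counts per gene and barcode, made with Cell Ranger 5.0.0 on mm10 per the submitters' processing notes, and the authors' tables carry no normalization. Barcodes were kept from 500 genes and 1000 UMIs upward if mitochondrial UMIs made up 10% or less. UMIs were summed per library and cell group, groups needing at least 20 cells in every library. CPM scales that sum to 1000000, and levels are not compared between genes, since 3′ counts depend on the gene. Tests were edgeR 4.0.16 quasi-likelihood F tests (TMM, filterByExpr, two-sided, Benjamini-Hochberg over all genes tested, threshold 0.05) in R 4.3.3, with the library as a block between groups. Only the CKO fit was tried on simulated counts, for the Atoh1 and Slc17a6 groups and with 1 fixed spread for all genes. The fits between groups and the interaction were not simulated. Alternatives were DESeq2 1.42.0, no filter on low counts, a replicate block, each library left out, cells thinned to 2000 UMIs with shallower cells left out and groups assigned again, deep cells only (at least 4000 UMIs, at most 5% mitochondrial), doublet-scored cells left out and 2 Gad UMIs. Named genes were the 8, called genes of the 2 lists and the 5 genes most like Meis1, Meis2 and Pbx3 (Pearson r of log2 CPM, prior count 2, mean of at least 20 CPM). Coordinates come from GENCODE M21. Members and lists were chosen with earlier results of these data known.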

Additional observations from a re-analysis of the deposited data

How the results depend on the processing

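In the 39 fits of the 8 genes whose values are called or discussed, 290 of 354 alternatives kept direction and side of the threshold, 48 lost a call, 9 gained one and 7 reversed. In the other 71 fits, none of which was a call, 96 of 671 alternatives reversed and 5 gained a call. The rise of Meis2 from the Atoh1 to the Slc17a6 group was called under every alternative run, from 2.21 to 3.21. Meis2 in the CKO was called without a filter on low counts over all cells (-1.45), in the Atoh1 (-1.21), Neurod1 (-1.66) and Neurod1+Slc17a6 (-1.10) groups. With each library left out in turn it ranged from -2.46 to 0.069 over all cells, -2.38 to 0.78 in the Atoh1 group, -0.59 to 0.15 in the Slc17a6 group and -1.55 to 0.42 in the unmarked cells, and the interaction from -0.42 to 1.78; the cause was not tested. Pbx4 between the Slc17a6 and Atoh1 groups was -0.053 when thinned, and 0.076 to 0.37 over left-out libraries.

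The number of all genes called in the CKO depended on the fit. In the order all cells, Atoh1, Neurod1, Neurod1+Slc17a6, Slc17a6, Gad and unmarked it was 0, 3, 2, 1, 13, 27 and 0 by edgeR, with 1648 genes over all cells at an unadjusted p under 0.05. DESeq2 called 142, 19, 103, 102, 23, 8 and 2, and the fit without a filter 768, 171, 500, 321, 81, 135 and 102. Leaving out a library gave 0 to 1398, 2 to 54, 0 to 82, 0 to 291, 28 to 222, 3 to 191 and 1 to 56, the highest without control replicate 1 except in the Slc17a6 group (without CKO replicate 2). Thinning gave 4 in the Neurod1 group and 0 in the Neurod1+Slc17a6 group, 2 Gad UMIs gave 2 in the latter, and deep cells gave 0 in the Atoh1 group. The interaction called 1 gene, 2 when thinned and 0 to 235 over left-out libraries.

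Thinning to 2000 UMIs also left out 4247 shallower cells and assigned the groups again, and these steps were not separated. With it, the calls against the Atoh1 group went from 6815 to 3801 (Slc17a6), 4459 to 1532 (Neurod1), 5221 to 2362 (Neurod1+Slc17a6) and 6310 to 731 (unmarked), and between Slc17a6 and Neurod1 from 3746 to 2463. Left-out libraries gave 614 to 1547 for Gad (2066 with all), 2641 to 4604 for Neurod1 and 2272 to 4145 between Slc17a6 and Neurod1. The share of cells in the Neurod1 and unmarked groups, CKO minus control, was -5.65 and -8.17 points and reversed to 0.98 and 4.13 when thinned; that of the Gad group was -0.18, 0.09 with 2 Gad UMIs and -0.75 to 0.39 over left-out libraries.

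Replicate numbers are shared by the genotypes, but the labels do not tie a number to a litter or day. Same-numbered libraries deviated in opposite directions, with a correlation of -0.25 over all cells. With a replicate block the calls were 0, 4, 3, 0, 14, 8 and 0 in the order above, and none was among the 8 genes. Pairing the numbers crosswise, an alternative chosen after seeing the data, gave 885, 63, 1038, 464, 154, 135 and 7, of which 3 were calls of Meis2 (all cells, Neurod1 and Neurod1+Slc17a6). Deep cells could not be fitted in the Slc17a6, Gad and unmarked groups, nor thinned cells and 2 Gad UMIs in the Gad group, since a library fell under 20 cells. Depth limits Pknox2, Pbx4, Pbx2 and Meis3 most: thinned cells with a Pknox2 UMI were at most 4.29% outside the Gad group.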
